A study of Mus musculus with 8 samples.

Results

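Thalamic excitatory neurons are the relay cells that carry sensory and motor signals to the cortex. Here they are the nuclei that a marker rule set apart in single-nucleus RNA sequencing of perilesional forebrain. A barcode was taken as a nucleus of this class when it held at least 1000 unique molecular identifiers (UMIs, counts of single captured transcripts) and 300 genes, with at most 5% of its UMIs from mitochondrial genes. It also had to hold at least 3 UMIs of Tcf7l2, at least 5 UMIs over Synpo2, Prkcd, Ntng1 and Adamts19 with at least 2 of these detected, and at most 1 UMI over the inhibitory genes Gad1 and Gad2. At most 4 UMIs of Prox1 were allowed, and none of the glial genes Mog, Aqp4 and Cx3cr1. The rule found 1495 nuclei among 44762 barcodes that passed the depth filters, a share of 3.34%, and 53390 barcodes were deposited. The 11 genes of the rule chose the nuclei from the same counts, so their levels describe the choice and were not tested.

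The 8 libraries came from male Swiss Webster mice aged 10 weeks, with 2 libraries per group. The control group had control surgery, the BCAS group BCAS surgery, the TBI group surgery for traumatic brain injury, and the BCAS+TBI group both surgeries. The labels leave BCAS as an abbreviation, which the title of the study ties to cerebral hypoperfusion, and state neither the time after surgery nor the number of mice per library. Each piece of tissue was a small cube cut beside the lesion, so the number of thalamic nuclei also depends on what each cube held. The control and BCAS groups had no TBI surgery, so for their libraries this wording does not name a TBI lesion.

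Relay neurons release glutamate, which they load into vesicles with the transporter VGLUT2, encoded by Slc17a6, while most cortical excitatory neurons use VGLUT1, encoded by Slc17a7. Low-threshold T-type calcium channels and hyperpolarization-activated HCN channels let relay neurons switch between bursts and single spikes. Tcf7l2 and Lef1 encode transcription factors of the Wnt pathway, and Tcf7l2 is known to maintain the adult identity of thalamic neurons.

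The numbers of thalamic nuclei were 152 and 174 in the control libraries, 104 and 210 with BCAS, 184 and 322 with TBI, and 206 and 143 with BCAS+TBI. Their median depth was 8401 UMIs per nucleus, and the library medians ran from 5693 to 11103.5 UMIs. Depth separated 2 sets of libraries, here called set 1 (control 1, BCAS 1, TBI 1 and BCAS+TBI 2) and set 2 (control 2, BCAS 2, TBI 2 and BCAS+TBI 1), each with 1 library of every group. The sets were defined from the libraries, not from the labels. Between the sets, 4908 of 12948 genes (37.9%) differed in the thalamic nuclei by edgeR's quasi-likelihood test, and the first principal component, with 53.7% of the variance, separated them. The tests below therefore carry a term for the library set. Of the barcode sequences, 289 occurred in more than 1 library, but none was a thalamic nucleus in more than 1.

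Genes that the rule did not use went with the label. Slc17a6 stood at 336 and 315 CPM (UMIs of a gene per 1000000 UMIs summed over the nuclei of a library) in the control libraries. With BCAS it stood at 336 and 269 CPM, with TBI at 266 and 248 CPM, and with BCAS+TBI at 277 and 342 CPM. Both TBI libraries lay below the others, the nearest of which was BCAS 2 at 269 CPM, and the other 3 groups overlapped. Its mean was 299 ± 37.5 CPM (SD, n = 8 libraries) against 54.8 ± 4.86 CPM in all other barcodes and 23.2 CPM in 2449 cortical excitatory nuclei of the same libraries, which were chosen by a cortical marker rule that asked for at least 2 UMIs of Slc17a7. At least 1 UMI of Slc17a6 was found in 83.7% of thalamic nuclei (Wilson 95% interval 81.7% to 85.5%). It was found in 17.4% of cortical nuclei at a median of 9341 UMIs, and in 3.41% of 1057 oligodendrocyte nuclei, which should lack the gene, at a median of 1824 UMIs. Slc17a7 ran the other way, at 71.3 ± 18.8 CPM in thalamic nuclei and 401 CPM in the cortical nuclei chosen by it. It was nevertheless detected in 36.5% of thalamic nuclei, against 8.70% of the shallower oligodendrocyte nuclei.

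Other thalamic transcription factors and signalling genes followed. Lef1 averaged 532 ± 50.3 CPM in thalamic nuclei, 40.9 CPM in other barcodes and 3.55 CPM in cortical nuclei. Among the genes outside the rule with at least 50 CPM and a higher level than in other barcodes in all 8 libraries, Lef1 led the ranking by the log2 ratio of the means with 5 CPM added. Plekhg1, which encodes an activator of small GTPases, came next with 884 ± 112 CPM against 78.2 CPM, and Vav3, which encodes another such activator, averaged 1035 CPM against 100.7 CPM. The receptor gene Vipr2, for vasoactive intestinal peptide, averaged 83.0 CPM against 5.38 CPM. The homeobox gene Shox2 averaged 65.4 ± 18.5 CPM against 4.16 CPM. Of the list of 20 thalamic identity genes outside the rule, 18 were higher than in other barcodes in 8 of 8 libraries, and 19 reached 10 CPM in either class. Over all 10848 genes at that level, 15.8% were higher in 8 of 8 libraries. Since these nuclei were selected from the same counts, these levels are descriptions, with no test. Lhx2, a transcription factor gene on the list, stood at 19.4 CPM against 15.9 CPM and was higher in 6 of 8 libraries.

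**Figure D1:**
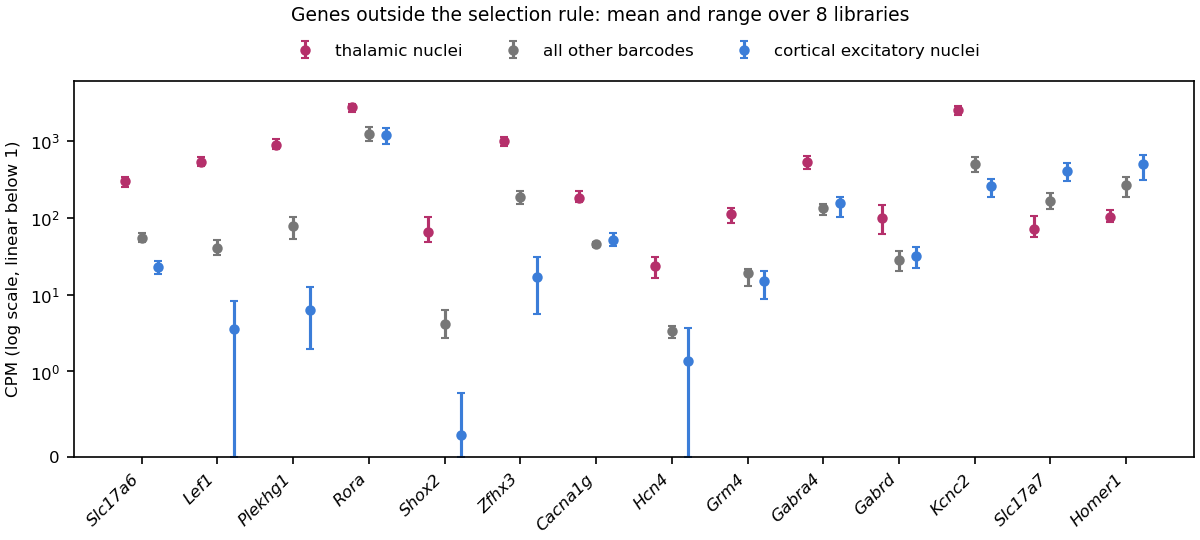
Level of 14 genes outside the selection rule in thalamic nuclei, in all other barcodes and in cortical excitatory nuclei, in CPM on a log scale that is linear below 1. Points are means over 8 libraries and bars run from the lowest to the highest library. The transporter gene Slc17a6 averaged 299 CPM in thalamic and 23.2 CPM in cortical nuclei, and Slc17a7 71.3 and 401 CPM.

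Markers of neighbouring neuron types differed by type. The habenula transcription factor gene Pou4f1 averaged 0.173 CPM, and Barhl1, a marker of the subthalamic region, was at 0 in every library. The inhibitory transporter gene Slc32a1, which the rule did not use, averaged 4.01 CPM against 35.1 CPM in other barcodes. Mbp, a myelin gene, averaged 26.1 CPM against 237 CPM in other barcodes. Over whole marker lists, the sum in thalamic nuclei ran from 13.1 to 31.6 CPM for 6 inhibitory genes against 193 to 250 CPM in other barcodes. It ran from 64.4 to 139 CPM for 5 oligodendrocyte genes against 342 to 1281 CPM. For 4 microglial genes it ran from 29.7 to 82.0 CPM against 59.4 to 182 CPM. These lists include genes by which the rule left nuclei out: Gad1 and Gad2 (inhibitory), Mog (oligodendrocyte) and Cx3cr1 (microglial). The low sums therefore follow in part from the choice. The 4 hippocampal genes went the other way, with 97.5 to 145 CPM against 39.9 to 63.7 CPM, and most of that was Prox1, a gene of the rule, at 115 against 38.5 CPM. The 4 genes of layer 6 corticothalamic neurons summed to 520 to 885 CPM, over nearly the same range as the 639 to 886 CPM of other barcodes, and Foxp2 among them averaged 488 against 147 CPM. The 7 habenula genes summed to 117 to 164 CPM, near the 138 to 181 CPM of other barcodes, and Pcdh10 made up nearly all of it. The 6 cortical excitatory genes, Slc17a7 among them, summed to 223 to 292 CPM against 409 to 459 CPM in other barcodes. Of the 5 that reached 10 CPM in either class, 4 were lower and 1 higher in 8 of 8 libraries. Of all genes at that level, 27.9% were lower and 15.8% higher. The 5 astrocyte genes, with Aqp4 of the rule among them, summed to 191 to 293 CPM against 296 to 699 CPM. Markers of vessels differed sharply between libraries. The endothelial genes Cldn5, Flt1 and Pecam1 summed to 287 CPM in TBI 1 and to between 5.25 and 34.5 CPM in the other libraries. The 4 mural and fibroblast genes summed to 230 CPM in TBI 1 and to between 3.46 and 26.1 CPM elsewhere.

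Because Tcf7l2 belongs to the TCF/LEF factors, whose core motif is CTTTGA, the promoters of the rule and identity genes were searched for it on both strands. On the other strand the motif reads TCAAAG. RefSeq promoter windows (GRCm38.p6, 250 bases before to 50 after each start) held it at 5 of 31 starts, 16.1%, against 5257 of 32851 windows of all genes, 16%. By gene it was present at 1 or more starts for 5 of 22, and a share by gene over all genes is not given. The 22 genes did not include Adamts19, Calb2, Necab1 or the genes by which the rule left nuclei out. A match describes letters only, not a site. Of the 5 windows with the motif, those of Prkcd, Shox2 and an inner start of Lef1 are shown, since these genes mark the nuclei. The windows of other genes that mark the nuclei, among them Synpo2, Ntng1, Plekhg1 and Slc17a6, held none. The sequences run 5′ to 3′ on the strand of the gene, with the motif in capitals (TCAAAG in each). The Prkcd window lies at chr14:30626159-30626458 on the minus strand, that of Shox2 at chr3:66981722-66982021 on the minus strand, and that of Lef1 at chr3:131156044-131156343 on the plus strand.
Prkcd: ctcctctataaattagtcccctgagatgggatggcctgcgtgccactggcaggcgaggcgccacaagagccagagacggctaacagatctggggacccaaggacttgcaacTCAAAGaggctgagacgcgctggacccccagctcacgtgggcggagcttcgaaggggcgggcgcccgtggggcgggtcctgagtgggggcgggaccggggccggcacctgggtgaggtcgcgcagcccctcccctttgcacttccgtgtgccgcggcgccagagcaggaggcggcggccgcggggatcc
Shox2: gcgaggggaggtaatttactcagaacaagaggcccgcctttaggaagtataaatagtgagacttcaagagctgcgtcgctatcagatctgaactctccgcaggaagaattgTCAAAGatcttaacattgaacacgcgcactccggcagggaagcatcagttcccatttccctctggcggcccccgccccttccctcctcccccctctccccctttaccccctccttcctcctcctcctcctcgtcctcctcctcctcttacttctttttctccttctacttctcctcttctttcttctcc
Lef1: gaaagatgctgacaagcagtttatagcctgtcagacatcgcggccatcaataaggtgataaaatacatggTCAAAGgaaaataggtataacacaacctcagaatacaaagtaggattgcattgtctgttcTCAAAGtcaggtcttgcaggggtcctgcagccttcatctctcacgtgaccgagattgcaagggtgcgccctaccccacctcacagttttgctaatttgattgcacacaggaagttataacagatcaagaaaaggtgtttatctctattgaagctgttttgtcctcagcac

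The Lef1 window held the motif at 2 places. The other 3 windows listed for Lef1, the other window of Prkcd and both windows of Tcf7l2 itself held none.

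Ion channel genes did not run in 1 direction. Cacna1g, which encodes the T-type channel Cav3.1 of relay neurons, averaged 179 ± 21.02 CPM in thalamic nuclei against 45.6 CPM in other barcodes. Its relatives Cacna1h and Cacna1i were lower than in other barcodes in 8 of 8 libraries, at 2.82 against 24.3 CPM and at 13.3 against 44.0 CPM. Of the HCN channel genes, Hcn4 was higher (23.5 against 3.41 CPM), and Hcn2 stood at 50.1 against 48.0 CPM. Of the 12 genes of the burst firing list that reached 10 CPM, 3 were higher and 7 lower in 8 of 8 libraries. Over all genes at that level, 15.8% were higher and 27.9% lower in 8 of 8. Kcnc2, a fast potassium channel gene, averaged 2534 ± 241 CPM against 496 CPM, and its relative Kcnc1 156 against 97.2 CPM.

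Receptor genes showed a similar split. The metabotropic glutamate receptor gene Grm4 (112 against 18.8 CPM) was higher in 8 of 8 libraries, while Grm5 (1066 against 1576 CPM) and Grm3 (94.4 against 333 CPM) were lower. Of 17 ionotropic glutamate receptor genes, 7 were higher and 8 lower in 8 of 8 libraries. For this list and the immediate early genes below, the shares over all genes at 10 CPM or more were 15.8% higher and 27.9% lower. Grin2c, a subunit of the NMDA receptor, was among the higher (55.0 against 17.1 CPM), and the AMPA receptor gene Gria2 among the lower (741 against 1517 CPM). The GABA receptor subunits of tonic inhibition, Gabra4 and Gabrd, averaged 534 against 134 CPM and 99.4 against 28.3 CPM. The subunit gene Gabra2 was lower, at 166 against 304 CPM. For guidance genes, Robo1, a receptor for Slit ligands, averaged 3540.5 CPM against 1057 CPM, while Robo2 averaged 247 CPM against 634 CPM. Neuronal activity induces immediate early genes. Of the 11 that reached 10 CPM, 8 were lower and 1 higher than in other barcodes in 8 of 8 libraries. Homer1 averaged 102 against 270 CPM, and Arc 1.74 against 16.5 CPM.

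At the edge of the rule, 239 nuclei held exactly 3 Tcf7l2 UMIs, and 229 barcodes with 2 met all its other conditions. Slc17a6 stood at 294 CPM inside and 269 CPM outside, Lef1 at 444 and 397 CPM, and Slc17a7 at 71.8 and 79.8 CPM. At the other threshold, 12 nuclei held a sum of 5 UMIs over the 4 marker genes and 10 barcodes a sum of 4, with Lef1 at 452 and 157 CPM and Plekhg1 at 406 and 31.4 CPM. Nuclei with 2, 3 and all 4 of the marker genes detected numbered 558, 521 and 416.

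Within the class, clustering on genes scaled within each library gave 10 clusters. They keep numbers, since no thalamic subtype was fixed by enough markers, and their sizes were not compared between groups. Cluster 1, with 379 nuclei, was led by Adamts19, Prkcd and Vipr2, and Slc17a7 was detected in 54.4% of its nuclei. In cluster 2, with 368 nuclei, Necab1 was detected in 92.4% of nuclei, against 37.9% of the other thalamic nuclei. This cluster was also led by Ldb2, and 22.3% of its nuclei held the calretinin gene Calb2. Cluster 3, with 255 nuclei, was led by the calbindin gene Calb1, found in 64.3% of nuclei against 31.6% of the others. Cluster 5 was led by Dgkg, Col27a1 and Ntrk3 and showed Slc17a7 in 14.1% of its 99 nuclei. Fgf10, a growth factor gene, led cluster 6 with detection in 70% of 80 nuclei, against 7.28% elsewhere. Cluster 7, with 79 nuclei, was led by Gbe1 and Csgalnact1, and cluster 10, with 12 nuclei, by Rspo3, a Wnt agonist gene found in all of its nuclei. Slc17a7 was detected in 83.3% of the nuclei of cluster 10, the highest share of any cluster, and its median doublet score was 0.109. Cluster 9 was led by Lypd6b, found in 93.1% of 58 nuclei and in 8.70% of the others.

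Clusters 4 and 8 differed from most others in depth or in identity genes. Cluster 4, with 102 nuclei, was led by Zeb2 and Dlgap2 and held Slc17a7 in 68.6% of nuclei, below cluster 10. Its median depth was 13092 UMIs and its median doublet score 0.204, the highest among the clusters. Cluster 8, with 63 nuclei, showed Slc17a6 in 93.7% of nuclei, but Lef1 in 23.8%, Plekhg1 in 15.9% and Synpo2 in 50.8%. Xkr6 and Nhs led cluster 8. Clusters 4 and 8 made up 6.82% and 4.21% of the nuclei, and the gene tests were repeated without them. Cluster 9, with Lef1 in 56.9% and Plekhg1 in 50% of nuclei, stayed in. So did cluster 10, with Lef1 in 58.3% of nuclei and a median depth of 11068 UMIs.

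**Figure D2:**
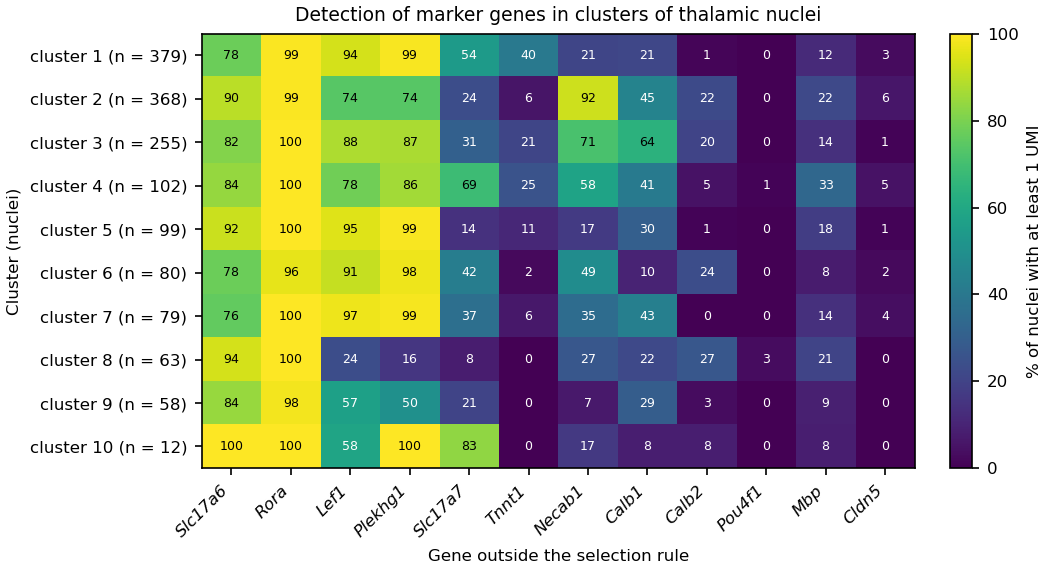
Percent of nuclei with at least 1 UMI of 12 genes outside the selection rule, in the 10 clusters of thalamic nuclei, with the number of nuclei in each. Slc17a6 was detected in at least 75.9% of the nuclei of every cluster. Slc17a7 was detected in 83.3% of nuclei in cluster 10 and 68.6% in cluster 4, and Lef1 and Plekhg1 were low in cluster 8 at 23.8% and 15.9%.

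The first comparison asked whether the share of thalamic nuclei differed with TBI surgery or with BCAS surgery. The shares were 3.01% and 3.08% of barcodes in the control libraries, 2.07% and 3.32% with BCAS, 3.73% and 4.48% with TBI, and 3.67% and 2.88% with BCAS+TBI. Both TBI libraries were the highest, and BCAS 1 was the lowest. With TBI surgery the mean was 3.69% ± 0.655 (SD, n = 4 libraries), and without it 2.87% ± 0.551, a difference of 0.821 percentage points. That difference did not pass the test (exact two-sided permutation test over 70 assignments, p = 0.114, 0.229 after adjustment for 2 tests), in a design whose smallest p is 0.0286. It was 0.768 points within set 1 and 0.874 points within set 2. With BCAS surgery the mean was 2.98% ± 0.691 and without it 3.58% ± 0.686, lower by 0.593 points (exact permutation p = 0.314, adjusted 0.314). Within the sets the BCAS difference was -0.896 and -0.289 points.

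Depth bears on these shares, because a deeper nucleus more easily reaches the UMI thresholds. Each barcode was therefore thinned to 3000 UMIs. Shallower barcodes were left out, from 1212 in control 2 to 1777 in BCAS 1. Over the barcodes kept, the arms overlapped before thinning, with BCAS+TBI 2 at 4.08%, control 1 at 4.21% and BCAS 2 at 4.41%. After thinning, the share as the mean of 5 draws was 2.04% and 1.58% in control and 1.49% and 1.74% in BCAS libraries. It was 2.85% and 2.33% in TBI and 2.10% and 2.32% in BCAS+TBI libraries. All 4 libraries with TBI surgery lay above the 4 without, by 0.688 points in the mean. The exact permutation p was 0.0286, the smallest that the design can give, and was not adjusted for 2 tests. Control 1 and BCAS+TBI 1 were close, and in 4 of the 5 single draws p was 0.0571. At 2000 UMIs the groups overlapped, with a difference of 0.164 points and an exact permutation p of 0.171, and at 5000 UMIs the difference was 1.22 points with an exact permutation p of 0.0571. The thinned shares were an alternative, and the mean of draws was chosen after the data had been seen. From these shares, more thalamic nuclei cannot be told apart from fewer other nuclei or from a cube cut at another place.

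**Figure D3:**
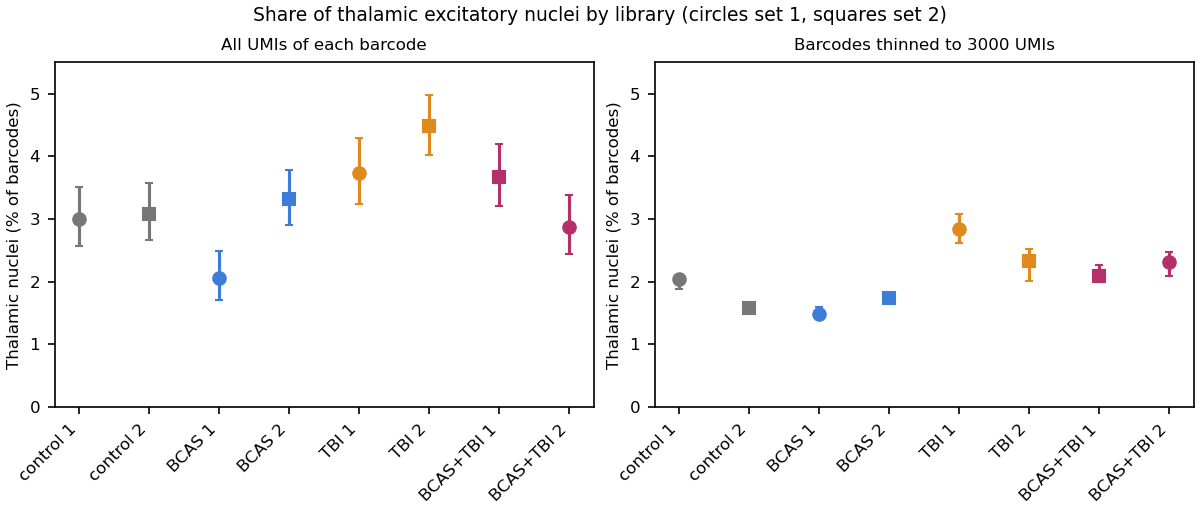
Thalamic nuclei as a percent of barcodes in each library, from all UMIs (left; bars are Wilson 95% intervals, which cover counting error only) and after thinning to 3000 UMIs (right; points are means of 5 draws and bars run from the lowest to the highest draw). Circles are libraries of set 1 and squares of set 2. On the left, BCAS+TBI 2 at 2.88% lies among the libraries without TBI surgery, and on the right the lowest library with TBI surgery stands at 2.10%, near control 1 at 2.04%.

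The gene comparisons asked whether expression in the thalamic nuclei differed with each surgery. Counts were summed per library and tested over 12948 genes, with Benjamini-Hochberg adjustment and a threshold of 0.05. For TBI surgery, averaged over BCAS, edgeR called 0 genes (0% of those tested), with 692 at an unadjusted p under 0.05. The smallest adjusted p by edgeR was 0.127, and DESeq2 also called 0. The 3 named genes with the smallest p did not pass. Cldn5, the claudin of the blood-brain barrier, had a log2 fold change of 2.26 (SE 0.41, adjusted p = 0.147 by edgeR). It stood at 118 CPM in TBI 1 and at most 14.95 CPM elsewhere, and its log2 fold change was 1.23 without control 1 and 2.63 without control 2, where it passed (edgeR adjusted p = 0.0139). Col11a1, a collagen gene, was at 43.1 and 27.7 CPM in control, 48.0 and 38.4 CPM in BCAS, 32.3 and 17.8 CPM in TBI, and 12.1 and 25.3 CPM in BCAS+TBI libraries. These levels overlapped, and its log2 fold change of -0.95 (SE 0.17, edgeR adjusted p = 0.147) became 0.21 without clusters 4 and 8. Ptprt, a receptor phosphatase gene, stood at 128 and 197 CPM in control, 48.0 and 165 CPM in BCAS, 62.5 and 96.2 CPM in TBI, and 118 and 56.4 CPM in BCAS+TBI libraries. The groups overlapped. It had a log2 fold change of -0.69 (SE 0.14, edgeR adjusted p = 0.340), which was -0.30 without BCAS 2 and -0.82 without BCAS 1, where it passed (edgeR adjusted p = 0.0154).

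None of the 13 gene lists had a member that passed for TBI surgery, among 176 list entries tested. Thalamic identity genes had a median log2 fold change of 0.05, with 12 of 19 above 0, beside 0.01 over all genes tested. The glutamate transporter gene Slc17a6 stood at -0.16 (SE 0.09, edgeR adjusted p = 0.948). The burst firing channels had a median of -0.11, with 3 of 12 above 0, and Cacna1g was at -0.16. For GABA receptor genes the median was -0.07, with 2 of 14 above 0. The immediate early genes had the highest median, 0.35, with 10 of 11 above 0. Among them, Egr1 stood at 7.83 and 5.44 CPM in control, 9.60 and 5.66 CPM in BCAS, 16.8 and 14.9 CPM in TBI, and 9.20 and 14.95 CPM in BCAS+TBI libraries. Its log2 fold change was 0.99 (SE 0.28, edgeR adjusted p = 0.661), and the arms overlapped at BCAS 1 and BCAS+TBI 1. For the axon injury list, with 13 of 20 genes tested, the median was -0.05, and Atf3, a factor induced by axon damage, averaged 0.135 CPM and stayed below the filter on low counts. Sprr1a, another gene of injured neurons, had 0 UMIs. The stress response list had a median of 0.02 (4 of 8 above 0), the Wnt list 0.03 (10 of 13) and the hypoxia list 0.08 (7 of 10). For ionotropic glutamate receptors the median was -0.04 (7 of 17), for metabotropic ones -0.000864 (3 of 7), and for sodium and potassium channels -0.04 (8 of 22). It was -0.05 for guidance genes (8 of 25) and -0.10 for heat shock genes (1 of 5).

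The TBI effect was also set against that in the cortical excitatory nuclei of the same libraries, in 1 model over both classes. Of 12963 genes, 0 (0%) differed in effect between the classes, with 594 at an unadjusted p under 0.05 and a smallest adjusted p of 0.30005 by edgeR. DESeq2 was not run for this comparison.

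For BCAS surgery, averaged over TBI, 1 gene was called (0.00772%). This was 4930447C04Rik (ENSMUSG00000021098), a protein-coding gene at chr12:72881109-72940774 on the minus strand in GENCODE M21 (GRCm38), which falls outside the naming rule for predicted names and was singled out after its values were seen. It stood at 22.5 and 11.4 CPM in control, 115 and 42.4 CPM in BCAS, 39.7 and 40.9 CPM in TBI, and 46.5 and 114 CPM in BCAS+TBI libraries. The lowest library with BCAS surgery, 42.4 CPM, lay just above the highest without it. Its log2 fold change was 1.44 (SE 0.21, edgeR adjusted p = 0.0279, range over the alternatives 3.49e-14 to 1.00). DESeq2 gave an adjusted p of 0.000714. The same gene was the 1 called between BCAS+TBI and control (0.00772% of genes tested), with a log2 fold change of 2.18 (SE 0.33, edgeR adjusted p = 0.0366). Without the term for the library set neither call was made, nor without control 1, control 2 or BCAS+TBI 2 in turn. The average over TBI was also not called without BCAS 1.

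In cortical nuclei 4930447C04Rik had its highest levels in the same libraries, 39.7 CPM in BCAS 1 and 36.9 CPM in BCAS+TBI 2, and in all other barcodes 39.8 and 34.5 CPM. TBI 2 exceeded BCAS 2 and BCAS+TBI 1 in both of these classes, at 20.4 against 18.3 and 11.9 CPM in cortical nuclei. The UMIs were spread over nuclei: 46 of the 104 thalamic nuclei of BCAS 1 held at least 1, and no nucleus in any library held more than 6. A difference between classes in the BCAS effect was not tested.

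**Figure D4:**
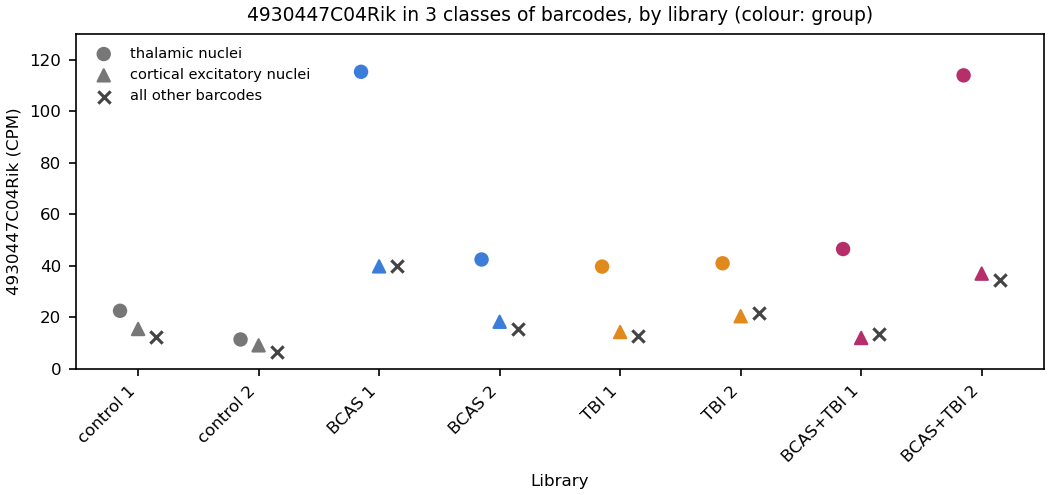
Level of 4930447C04Rik in CPM in each library, for thalamic nuclei (circles), cortical excitatory nuclei (triangles) and all other barcodes (crosses). BCAS 1 and BCAS+TBI 2, both of set 1, were the highest in each class, with 115 and 114 CPM in thalamic nuclei.

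The interaction, the difference of the TBI effect with and without BCAS, was called for 3 genes, all lower (0.0232% of those tested): Vtn, Pltp and Tmsb4x. Among the lists, 0 members passed for BCAS surgery, for the interaction or for either pairwise comparison, and the smallest adjusted p of any member was 0.232, for the glucose transporter gene Slc2a1 in BCAS+TBI against TBI. Slc2a1 stood at 54.5 CPM in TBI 1 and at most 11.7 CPM in the other libraries, and 52 of its 81 UMIs in TBI 1 were in a single nucleus. The medians of the lists ran from -0.11 to 0.08 for BCAS surgery, beside -0.01 over all genes. For the interaction, Kcnk2, a leak potassium channel gene, had a log2 value of 1.30 (SE 0.34, edgeR adjusted p = 0.568). It stood at 35.2 and 31.7 CPM in control, 20.6 and 22.2 CPM in BCAS, 20.8 and 17.5 CPM in TBI, and 29.5 and 32.2 CPM in BCAS+TBI libraries. Both single surgeries thus lay below control and BCAS+TBI, without passing the test.

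Between BCAS+TBI and TBI, 13 genes (0.1%) differed, all lower in BCAS+TBI by edgeR. Among them, Cldn5, Flt1, Slco1a4, Itm2a, Adgrl4, Mecom and Ly6c1 are known from endothelium, Rgs5 and Vtn from pericytes, and Hbb-bs encodes a haemoglobin chain. The others were Pltp, Ifitm3 and Tmsb4x. At least 1 UMI of Tmsb4x was found in 15.5% to 51.9% of the thalamic nuclei of every library. Between the groups, the levels of Cldn5, Ly6c1, Hbb-bs, Pltp, Ifitm3 and Tmsb4x overlapped, so that these genes fell outside the naming rule and are given after their values were seen. Vtn, which encodes vitronectin, stood at 124 and 3.49 CPM in TBI and 0.968 and 3.45 CPM in BCAS+TBI libraries, with 8.81 and 0.495 CPM in control and 19.2 and 1.62 CPM in BCAS. Its log2 fold change was -4.34 (SE 0.50, edgeR adjusted p = 0.000999). Rgs5 stood at 112 and 6.67 CPM in TBI and 1.45 and 2.30 CPM in BCAS+TBI libraries (log2 fold change -4.31, SE 0.56, edgeR adjusted p = 0.00199), and DESeq2 did not call it. Without TBI 1 the log2 fold changes of Vtn and Rgs5 were -2.75 and -3.04, without BCAS+TBI 2 they were -2.12 and -2.24, and neither gene was called in either case. Flt1, a receptor for vascular endothelial growth factor, stood at 146 and 13.3 CPM in TBI against 6.78 and 9.20 CPM in BCAS+TBI. Hbb-bs stood at 514 CPM in TBI 1 and at most 21.9 CPM elsewhere. All 13 were highest in TBI 1.

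These UMIs lay in few nuclei. Over the 7 vascular markers (Cldn5, Flt1, Pecam1, Rgs5, Pdgfrb, Dcn and Col1a2), TBI 1 held 769 UMIs, of which 371 and 329 came from a pair of nuclei with 39771 and 27506 UMIs. Only 5 thalamic nuclei held 20 or more such UMIs, 3 in TBI 1, 1 in TBI 2 and 1 in BCAS 1, and no other nucleus held more than 9. The 3 nuclei of TBI 1 carried between 75.7% and 98.4% of that library's UMIs of each of the 13 genes. When the 5 nuclei were left out, a choice made after the data had been seen, edgeR called 0 genes for BCAS+TBI against TBI, with 470 at an unadjusted p under 0.05, and 7 of the 13 were still tested. Vtn then stood at 12.7 and 3.19 CPM in the TBI libraries, and Tmsb4x at 88.3 and 35.4 CPM. Cldn5, Flt1 and Rgs5 were among the markers that chose the 5 nuclei, so their fall there follows from the choice. DESeq2 on all nuclei called 5 genes. Without TBI 1 edgeR called 1 gene, without BCAS+TBI 2 it called 0, and without TBI 2 it called 43.

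**Figure D5:**
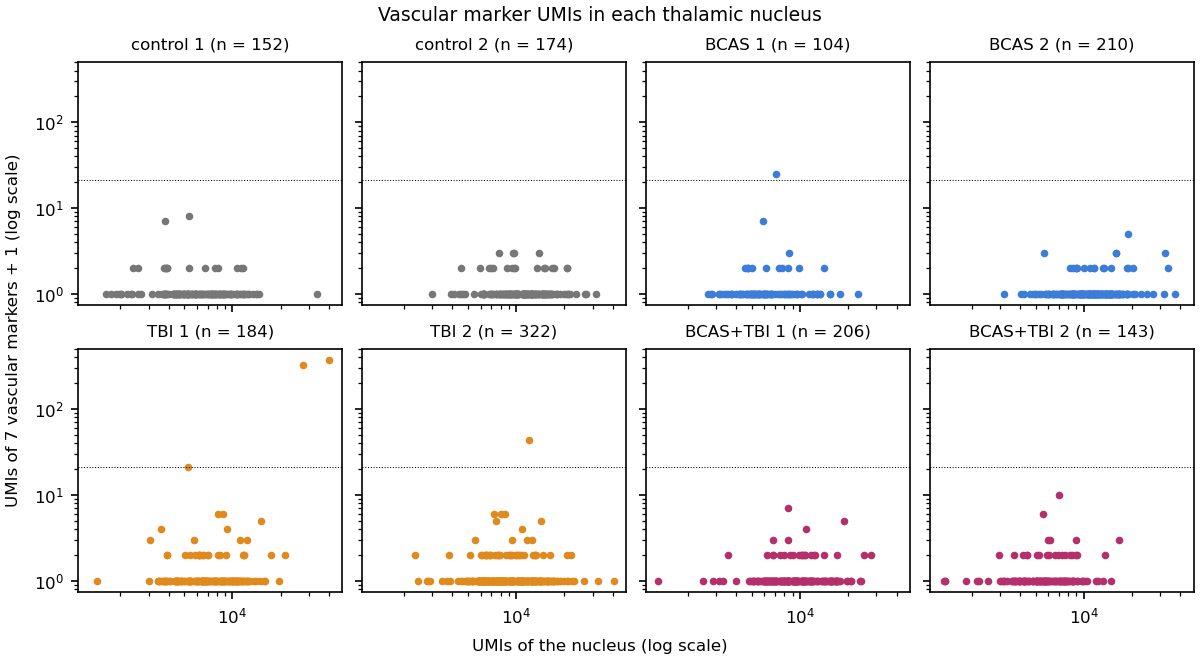
UMIs of 7 vascular markers plus 1 against the total UMIs of each thalamic nucleus, both on log scales, 1 panel per library with its number of nuclei. The dotted line marks 20 marker UMIs. The pair of points at the upper right of TBI 1 held 371 and 329 marker UMIs, and no nucleus below the line held more than 9.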

How the data were processed

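The authors deposited 1 matrix of UMI counts per library, raw whole numbers per gene and barcode. Per the file headers, Cell Ranger 7.0.0 wrote them. The submitters' processing notes name Seurat and the builds GRCm38 and mm10. Settings for calling nuclei are not given in the sources used here. The libraries held 28118725 to 56135192 UMIs. Members and gene lists were chosen with earlier results of these data known. The labels do not say whether the libraries came from separate mice, so the spread between libraries may be technical. The share tests rest on that spread. Each group holds 1 library of each set, so p-values of the main gene tests rest on the spread left after the set term. Without that term, 83 genes had an unadjusted edgeR p under 0.05 for TBI, against 692 with it.

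Counts were summed per library over the thalamic nuclei and tested with edgeR 4.0.16 (R 4.3.3; TMM, filterByExpr with a minimum count of 10, group plus library set, two-sided). DESeq2 1.42.0 was an alternative. The script was tested on simulated data with 200 changed genes per run. Counts were drawn per library from the model that the test assumes, with the set effect and dispersions fitted to these data. They covered only genes past the filter and held no single nuclei rich in other transcripts. Recovery therefore holds for data that follow the model and may differ in the real libraries. For TBI averaged over BCAS, the script recovered 71.5% of 2-fold changes with 14 false calls, and 93% of 4-fold changes with 11. For BCAS+TBI against TBI, it recovered 46% of 2-fold changes with 11 false calls, and 81.5% of 4-fold changes with 10. Replicate numbers did not pair libraries in every group. Deviations from the group means of control 1, BCAS 1 and TBI 1 correlated with each other at 0.551 to 0.559. Those of BCAS+TBI 1 correlated at -0.582 to -0.624 with those of the other replicates 1.

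The naming rule took up to 8 genes per direction called by edgeR with separate CPM ranges in the arms, or else the 3 with the smallest p, and up to 4 per list, leaving out predicted names, mitochondrial genes and the genes of the rule. Doublets were scored with Scrublet (scanpy 1.11.5) and not removed; 79 thalamic nuclei lay in the highest 6% of scores. Clusters used 1500 variable genes, 20 principal components and Leiden at resolution 0.3. Positions come from GENCODE M21, which matched 54079 of 54232 gene IDs. Alternatives were DESeq2, RLE normalization, other filters, other thresholds of the rule, thinning, and leaving out each library. Some genes measured in the files are not reported here.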

Additional observations from a re-analysis of the deposited data

Results flagged for a closer look

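The interaction of TBI and BCAS, which asks whether the change with TBI surgery differed between mice with and without BCAS surgery, was called for 3 genes of 12948 (0.0232%) by edgeR, all with a negative sign. Vtn had an interaction of -5.61 on the log2 scale (SE 0.84, edgeR adjusted p = 0.0354). Pltp, a lipid transfer protein gene, had an interaction of -5.47 (SE 0.90, edgeR adjusted p = 0.0407), and its libraries stood at 2.94 and 0 CPM (control), 15.1 and 1.62 CPM (BCAS), 63.9 and 3.17 CPM (TBI), and 0.968 and 6.90 CPM (BCAS+TBI). Tmsb4x, which encodes thymosin beta 4, had an interaction of -1.85 (SE 0.30, edgeR adjusted p = 0.0407), with 96.9 and 27.2 CPM (control), 154 and 27.1 CPM (BCAS), 346 and 43.2 CPM (TBI), and 18.9 and 112 CPM (BCAS+TBI). All 3 were highest in TBI 1. Without the 5 nuclei rich in vascular markers the interactions were -1.87, -2.20 and -0.29, and none of the 3 passed. None of the 3 was called without control 1, BCAS 1, BCAS 2, TBI 1 or BCAS+TBI 2 in turn, and Tmsb4x also not without BCAS+TBI 1. Over the libraries left out, the interaction ran from -6.60 to -3.39 for Vtn, from -6.96 to -4.51 for Pltp and from -2.21 to -1.28 for Tmsb4x.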

How the results depend on the processing

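The numbers of genes called follow in the order TBI, BCAS, interaction, BCAS+TBI against TBI and BCAS+TBI against control, which were 0, 1, 3, 13 and 1. The model without the library set called 0, 0, 0, 0 and 0, with 83, 46, 82, 75 and 63 at an unadjusted p under 0.05, and so did the replicate block, which uses the replicate number as the block, with 0 for each. DESeq2 called 0, 1, 1, 5 and 1. With no filter on low counts edgeR called 45, 20, 48, 74 and 16, and with a minimum count of 30 it called 0, 0, 0, 2 and 0. The stricter rule gave 1, 2, 0, 0 and 2, and the looser rule 0 for the interaction. On leaving out the 12 nuclei deeper than 3 times their own library's median the counts were 1, 1, 0, 0 and 1, and without nuclei rich in vascular markers 1, 1, 0, 0 and 1. Without clusters 4 and 8, the interaction was called for 1 gene. Thinning to the same total gave 4 genes for TBI, 7 for the interaction and 2 for BCAS+TBI against control, and the filter on free RNA 1 for TBI. Leaving out 1 library gave 0 to 9, 0 to 4, 0 to 13, 0 to 43 and 0 to 8 genes, and 0 to 2 for thalamic against cortical nuclei. Where a library is left out, its group has 1 library, which is assumed to vary like the other groups. The cause of these changes was not tested.

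The predicted gene Gm14172 was called for TBI in 8 alternatives and was singled out after its values were seen. Signs reversed for Col11a1 with TBI without clusters 4 and 8 (0.21), and in BCAS+TBI against TBI for Flt1 and Cldn5 under the stricter rule (0.27 and 0.23) and for Flt1, Ly6c1 and Cldn5 without nuclei rich in vascular markers (0.28, 0.17 and 0.13). As the mean of 5 thinned draws, the difference in share with TBI was 0.688 points (exact permutation p = 0.0286, not adjusted for 2 tests). On leaving out 1 library from the shares without thinning, it ran from 0.554 to 1.09 points. The highest value came without BCAS+TBI 2, the lowest library with TBI surgery. The difference in share with BCAS ran from -0.821 to -0.287 points. The comparison with layer 6 corticothalamic nuclei could not be fitted, since too few libraries held 20 such nuclei. The thalamic nuclei held from 728925 to 3150538 UMIs per library, and every library of set 1 held fewer than any of set 2.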
